A study of Homo sapiens with 15 samples.

Results

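The response of IL-1β-stimulated MH7A cells to glucosamine (GlcN) was measured on 6 of the 15 arrays of the series, namely 3 arrays of cells given IL-1β and GlcN and 3 arrays of cells given IL-1β alone. MH7A is an established line of human synovial fibroblasts immortalised with a viral antigen, so every value comes from 1 cell line. The arrays were chosen by their labels, and each GlcN array was paired with the IL-1β array of the same experiment number, 1, 2 or 3. The question was which mRNAs differ in stimulated synovial cells when GlcN is present. All cells were maintained in RPMI-1640 medium with fetal bovine serum, and the study's methods describe a change to medium without serum before the treatment. IL-1β was given at 15 pg/ml for 13 h, and GlcN at 5 mM from 2.5 h before IL-1β until harvest. The other 9 arrays were used as context: 3 of resting cells without IL-1β, 3 of cells given IL-1β and alloxan, and 3 of cells given IL-1β, alloxan and GlcN. Alloxan, an inhibitor of the enzyme that attaches O-GlcNAc to proteins, was given at 5 mM for 30 min and at 2 mM thereafter. None of the 5 conditions combined GlcN with resting cells or gave another sugar at the same concentration. The labels call the numbers experiments and give no further detail on the cultures. The p-values measure the spread between these repeats of 1 line, with the level of each experiment removed and all 5 conditions pooled.

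GlcN is an amino sugar that cells take up through glucose transporters and phosphorylate, and it enters the hexosamine pathway below its rate-limiting enzyme. The end product of that pathway, UDP-GlcNAc, feeds N-glycosylation in the endoplasmic reticulum (ER) and O-GlcNAc modification of nuclear and cytosolic proteins. The integrated stress response (ISR) is a program in which phosphorylation of a translation factor raises ATF4, a transcription factor that turns on genes of amino acid supply and tRNA charging. The unfolded protein response (UPR) is a parallel program in which sensors in the ER membrane turn on chaperone and degradation genes. IL-1β acts through NF-κB and AP-1 factors in synovial fibroblasts and induces cytokines, chemokines and matrix-degrading enzymes.

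The promoters shown here hold the letters of a C/EBP-ATF element, the composite site described for ATF4 and its C/EBP partners, and belong to genes that were higher with GlcN. The element was searched as TGATGCAA on both strands of the 300 bases around the first listed start of each gene, 250 before it and 50 after, in RefSeq sequence of build GRCh38.p14. Capitals mark the match, which reads TTGCATCA where it lies on the other strand, and each line gives up to 40 bases on either side and none of the transcript except a match that spans the start. ASNS holds a looser form, TGATGNAA, which also takes in every strict match.
CHAC1: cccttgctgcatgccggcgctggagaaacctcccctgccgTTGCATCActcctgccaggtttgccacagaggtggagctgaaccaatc
AARS1: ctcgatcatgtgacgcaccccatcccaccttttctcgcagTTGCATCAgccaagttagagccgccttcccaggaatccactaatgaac
CARS1: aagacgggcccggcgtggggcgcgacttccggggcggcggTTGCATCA
IARS1: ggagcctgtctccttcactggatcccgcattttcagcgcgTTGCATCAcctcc
MARS1: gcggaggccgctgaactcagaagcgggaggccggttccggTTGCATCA
HERPUD1: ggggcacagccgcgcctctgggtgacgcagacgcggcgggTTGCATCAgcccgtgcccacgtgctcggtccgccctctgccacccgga
IL20RB: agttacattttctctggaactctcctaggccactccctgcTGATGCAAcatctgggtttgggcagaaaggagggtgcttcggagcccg
ASNS: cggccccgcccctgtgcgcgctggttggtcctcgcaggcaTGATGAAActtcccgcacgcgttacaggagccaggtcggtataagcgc
The windows were, in the same order, chr15:40953222-40953309 (plus strand), chr16:70289646-70289733 (minus strand), chr11:3057418-3057465 (minus strand), chr9:92293698-92293750 (minus strand), chr12:57488024-57488071 (plus strand), chr16:56931926-56932013 (plus strand), chr3:136957867-136957954 (plus strand) and chr7:97872429-97872516 (minus strand). The match began 209 bases upstream of the start in CHAC1, 187 in AARS1, 2 in CARS1, 13 in IARS1, 4 in MARS1, 176 in HERPUD1, 76 in IL20RB and 68 in ASNS. A match describes the letters in this window only.

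The labelled cell type was checked against marker genes. Of 15 synovial fibroblast markers on the array, 14 passed the filter on low values, PRG4 being the exception. Of the 15, 8 lay above the median of all 18417 named genes on all 3 IL-1β arrays, among them VIM, COL1A1, COL3A1, THY1 and PDGFRB. A median divides the genes equally, so this share is close to that of any genes and does not by itself identify the cell type. FAP lay below the median on all 3, at 5.60, 5.83 and 6.40 (log2) against 6.86, 7.88 and 8.23. None of the markers of T cells, B cells, endothelial cells or epithelial cells lay above the median on all 3 IL-1β arrays, and of the macrophage markers 2 did, CD68 and TYROBP. No detection call was used, so a marker below the median is not shown to be absent. The mean level of the fibroblast markers was 7.30 to 8.62 (log2) on the IL-1β arrays and 6.98 to 8.48 on the GlcN arrays. The experiments differed in level on all 5 conditions: the median over all transcript clusters was 6.18 to 6.21 (log2) in experiment 1, 7.14 to 7.19 in experiment 2 and 7.49 to 7.54 in experiment 3. Levels are therefore read within an experiment, and raw ranges of the groups often overlap only because the experiments lie apart.

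Over 16872 genes tested, GlcN changed 2010 genes in limma with the experiment as a block (two-sided, adjusted p under 0.05), 893 of them higher and 1117 lower. The background of higher genes was 5.29% and that of lower genes 6.62%, against which the gene groups below are read. The groups were chosen with earlier results of these data known, and the background itself differs with signal level. Shares above it are therefore descriptions and not tests. Most changes were small, with a median fold of 1.30 among the higher and 1.28 among the lower genes. Past 1.5-fold there were 196 higher and 199 lower genes, past 2-fold 51 and 49, and past 4-fold 6 and 2. The sign was the same in 3 of 3 experiments for 886 of the 893 higher and 1109 of the 1117 lower genes. Over all genes tested, called or not, 15.0% were higher and 16.3% lower in all 3 experiments. The calls were made from these same paired differences, which favours genes of equal sign. The agreement among called genes is therefore not a separate replication.

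**Figure D1:**
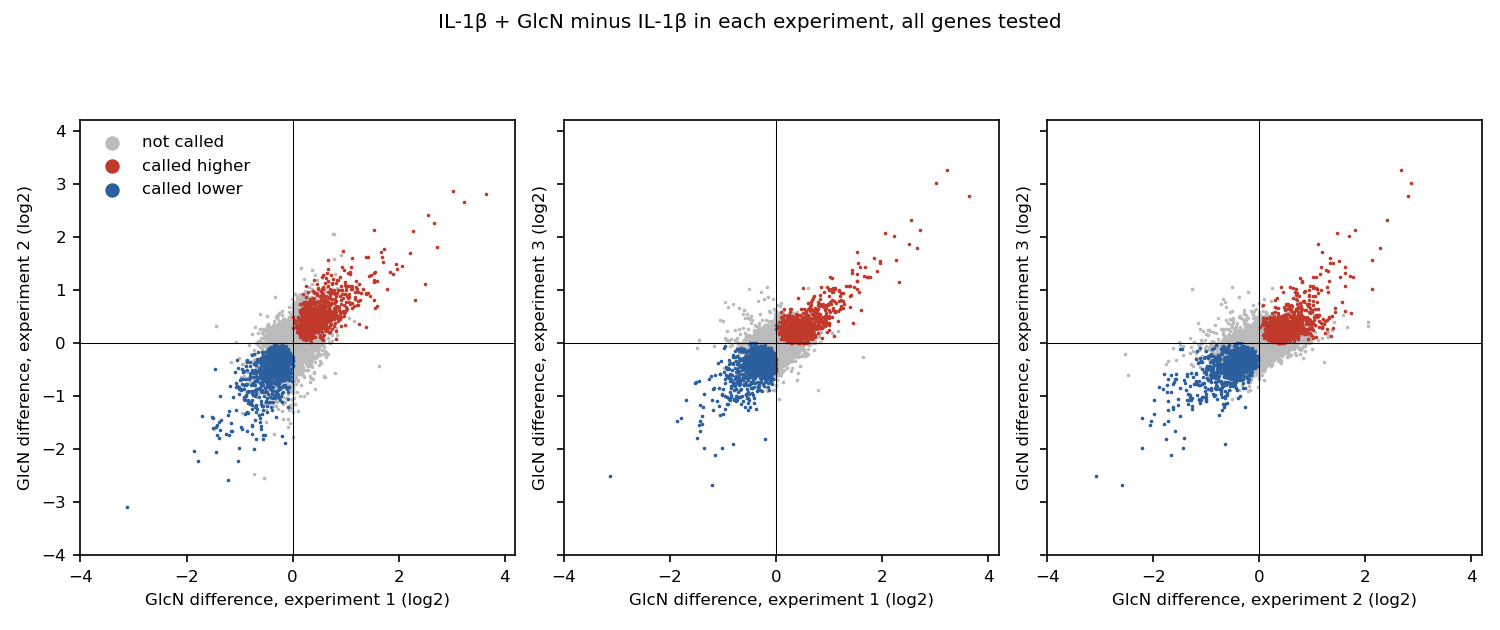
Each point is 1 of the 16872 genes tested, and the axes give the log2 difference between the GlcN and the IL-1β array of 1 experiment against that of another. Genes called higher (red, 893) and lower (blue, 1117) lie mostly in the corners where both experiments have the same sign. Calling from these same differences favours those corners. Pearson's r over all genes tested was 0.59 to 0.62 for the 3 pairs of experiments.

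The size of the response differed between experiments. The SD of the log2 differences over genes was 0.245 in experiment 1, 0.299 in experiment 2 and 0.219 in experiment 3. In experiment 1, 322 genes were past 1.5-fold higher and 231 lower, in experiment 2 443 and 503, and in experiment 3 143 and 250. Of those higher genes, 93.8%, 89.8% and 86.0% had the same sign in both of the other experiments, and of the lower genes 85.3%, 79.5% and 94.0%. Genes are not independent replicates, and these shares are descriptions. Genes with low signal were called less often: with genes divided by mean level into 5 equal parts, 1.19% were higher and 0.80% lower in the lowest part, and 7.17% and 12.8% in the highest, while the median standard error was 0.06 (log2) in both.

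The calls rest on the block and on the spread shared by all 15 arrays. Without the block 3 genes were higher, SPX, INHBE and BEST1, and 1 was lower, CD180. On the 6 compared arrays alone, with the block, BEST1 was the only gene that passed in limma, 0 genes were lower, and 1308 higher and 1467 lower genes had an unadjusted p under 0.05, among them 827 and 1018 of the genes called with all arrays. Leaving out 1 array at a time gave 487 to 1017 higher and 646 to 1253 lower genes. The count of higher genes fell by more than 1.5 times without IL-1β array 2 (487) and GlcN array 2 (522), and that of lower genes without IL-1β array 2 (662) and GlcN array 2 (646); an array is named here by its experiment number. Leaving out a whole experiment gave 317, 316 and 490 higher and 595, 359 and 404 lower genes for experiments 1, 2 and 3.

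SPX, INHBE and BEST1 had the largest increases. SPX, which encodes the secreted peptide spexin, read 5.39, 6.32 and 6.63 (log2) with IL-1β and 9.04, 9.13 and 9.41 with GlcN, in experiments 1, 2 and 3. The groups did not overlap, and the log2 fold change was 3.08 ± 0.49 (SD of the 3 paired differences, n = 3; limma adjusted p = 4.86e-06), or 8.45-fold. INHBE, a TGF-β family subunit induced in the ISR, read 5.25, 7.35 and 6.95 with IL-1β and 8.49, 10.02 and 10.20 with GlcN. Its lowest GlcN value lay above its highest IL-1β value, and the change was 3.05 ± 0.34 (log2; limma adjusted p = 2.33e-06). BEST1, a calcium-activated chloride channel, read 5.32, 6.90 and 7.23 against 8.35, 9.76 and 10.24. Its change of 2.97 ± 0.09 was almost the same in each experiment (limma adjusted p = 2.61e-07).

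**Figure D2:**
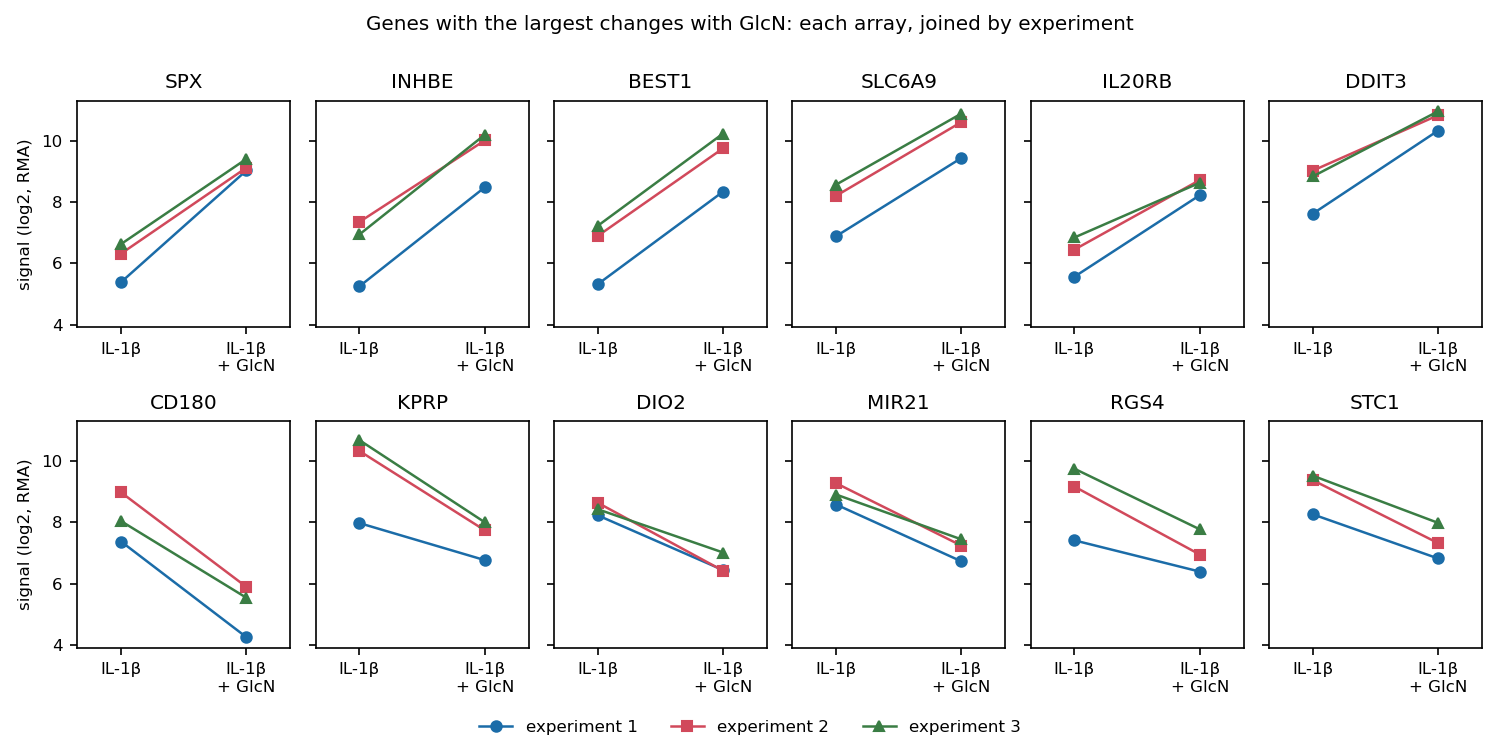
The 6 genes with the largest increase (upper row) and the 6 with the largest decrease (lower row) with GlcN, with the log2 signal of every array on the vertical axis and a line joining the 2 arrays of an experiment. All lines of the upper row rise and all lines of the lower row fall, from 3.08 for SPX to -2.91 for CD180 on average, while experiment 1 starts lowest for most genes.

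SLC6A9, a glycine transporter, read 6.89, 8.21 and 8.57 with IL-1β and 9.44, 10.62 and 10.90 with GlcN, a change of 2.43 ± 0.12 (limma adjusted p = 1.53e-07). DDIT3, which encodes the stress transcription factor CHOP, read 7.62, 9.03 and 8.84 against 10.34, 10.84 and 10.97, a change of 2.22 ± 0.46. In both genes the groups did not overlap. IL20RB, a receptor chain for IL-20 family cytokines, read 5.56, 6.45 and 6.85 against 8.23, 8.72 and 8.63 and rose by 2.24 ± 0.44. The remaining increases of the leading 15 were WARS1, tryptophanyl-tRNA synthetase, at 1.99 ± 0.37, ALDH1L2, a mitochondrial folate enzyme, at 1.98 ± 0.26, SLC7A11, the cystine transporter, at 1.83 ± 0.70, the Schlafen gene SLFN5 at 1.66 ± 0.25, TRIB3, a pseudokinase that restrains ATF4, at 1.62 ± 0.30, and CMKLR2, a receptor for chemerin, at 1.58 ± 0.12. ASNS, CHAC1 and ERO1B complete them and are described with their groups.

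ISR factors and feedback genes formed the group with the largest shift. Among 29 genes tested, 17 were higher and 1 lower, with a median log2 fold change of 0.64, beside a median of 0.01 over all genes tested. By experiment the median was 0.66, 0.53 and 0.62. SESN2, which restrains growth signalling when amino acids are short, read 6.81, 8.26 and 8.53 with IL-1β and 8.34, 9.41 and 9.84 with GlcN, a change of 1.33 ± 0.19 (limma adjusted p = 7.28e-07). ATF4 itself read 9.34, 11.07 and 10.87 against 10.23, 11.52 and 11.83, a change of 0.77 ± 0.27. Its partners CEBPB and CEBPG rose by 1.46 ± 0.11 and 1.14 ± 0.23. CHAC1, which breaks down glutathione, read 6.94, 8.50 and 8.16 against 8.79, 9.84 and 9.77 and rose by 1.60 ± 0.25, with no overlap of the groups. NUPR1, a stress-induced chromatin protein, rose by 1.55 ± 0.24 and PPP1R15A, the phosphatase subunit that ends the ISR, by 0.68 ± 0.22. ATF4, CEBPB, CEBPG, NUPR1 and PPP1R15A were named after their values were seen. STC2, a secreted glycoprotein gene, was the lower member at -0.49 ± 0.33, a call lost without IL-1β array 1 (-0.53) or 2 (-0.39) or GlcN array 2 (-0.36) or 3 (-0.50). Without any 1 array the list held 17 higher genes in each case.

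Enzymes that make amino acids and one-carbon units were higher in 13 of 23 cases and lower in 1, with a median of 0.48. ASNS, asparagine synthetase, whose promoter window is shown above, read 7.79, 8.75 and 8.54 with IL-1β and 9.85, 10.21 and 10.60 with GlcN. The groups did not overlap, and the change was 1.86 ± 0.35 (limma adjusted p = 2.45e-05). PCK2, the mitochondrial enzyme that turns oxaloacetate into phosphoenolpyruvate, rose by 1.48 ± 0.27. PHGDH, the first enzyme of serine synthesis, read 10.11, 11.22 and 11.09 against 11.56, 12.48 and 12.47, a nearly equal step in each experiment of 1.36 ± 0.09. ALDH18A1, which starts proline synthesis from glutamate, was the lower member at -0.41 ± 0.06. MTHFD2 and SHMT2, mitochondrial folate enzymes named after their values were seen, rose by 1.07 ± 0.28 and 0.63 ± 0.16.

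Of 24 amino acid transporters, 10 were higher and 1 was lower, but the median was 0.10, since the other 13 did not pass. SLC1A4, a carrier of alanine and serine, rose by 1.05 ± 0.03. SLC7A5 and SLC3A2, the light and heavy chain of a large neutral amino acid exchanger, rose by 0.92 ± 0.27 and 1.16 ± 0.36. The lower member was SLC38A4, at -0.39 ± 0.15.

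The cytosolic aminoacyl-tRNA synthetases, which charge tRNAs, split by enzyme: 12 of 20 were higher and 4 lower, with a median of 0.32. WARS1 read 9.06, 9.63 and 10.62 with IL-1β and 11.33, 11.75 and 12.20 with GlcN, so the groups did not overlap. AARS1, alanyl-tRNA synthetase, read 10.22, 11.12 and 11.46 against 11.76, 12.44 and 12.63 and rose by 1.34 ± 0.18 (limma adjusted p = 3.76e-06). SARS1 and YARS1, for serine and tyrosine, rose by 0.81 ± 0.14 and 0.83 ± 0.22. The 4 lower synthetases moved little, QARS1 and FARSA by -0.17 ± 0.01 each, RARS1 by -0.27 ± 0.08 and HARS1 by -0.21 ± 0.12. QARS1 was lost without IL-1β array 2 (-0.18) or 3 (-0.16) or GlcN array 2 (-0.16), FARSA without any IL-1β array (-0.14 to -0.18) or GlcN array 1 or 2 (-0.15 and -0.16), RARS1 without IL-1β array 1 (-0.23) or 2 (-0.28) or GlcN array 2 (-0.20) or 3 (-0.26), and HARS1 without any IL-1β array (-0.14 to -0.24) or GlcN array 2 (-0.20) or 3 (-0.18). Of 16 mitochondrial synthetases tested, 1 was higher, TARS2 at 0.33 ± 0.13, and 1 lower, IARS2 at -0.23 ± 0.09, with a median of -0.02. IARS2 was lost without IL-1β array 1 (-0.20) or 3 (-0.22) or GlcN array 3 (-0.18).

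The strict C/EBP-ATF element lay in 0.923% of all 27305 promoters in the RefSeq table and in 0.692% of the 13147 tested genes that have one there. It lay in 9 of the 160 genes with a promoter that were at least 1.5-fold higher with GlcN, 5.62%, and in 0 of the 131 that were at least 1.5-fold lower. The 9 genes were AARS1, CARS1, IARS1, MARS1, CHAC1, HERPUD1, IL20RB, BCAT1, which starts the breakdown of branched-chain amino acids, and NCOA7. Among the 16 cytosolic synthetases with a promoter, 6 held it, 37.5%, and these were AARS1, CARS1, IARS1, MARS1, NARS1 and TARS1. CARS1 rose by 0.80 ± 0.04, MARS1 by 0.81 ± 0.11 and IARS1 by 0.60 ± 0.22 with GlcN, and NARS1 by 0.35 ± 0.27 and TARS1 by 0.29 ± 0.11. NARS1 was lost without IL-1β array 1 (0.26) or 2 (0.32) or GlcN array 1 (0.26) or 2 (0.37), and TARS1 without any IL-1β array (0.29) or GlcN array 1 (0.21). These genes, apart from AARS1, CHAC1, HERPUD1 and IL20RB, were named after their values were seen. The looser form lay in 2.18% of tested genes, in 16 of the 160 higher genes and in 5 of the 131 lower genes.

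ER chaperones and disulfide isomerases were higher almost throughout, 18 of 22 being higher and 1 lower, with a median of 0.43 and medians of 0.46, 0.44 and 0.37 in the 3 experiments. PDIA4, a disulfide isomerase, read 10.67, 11.67 and 11.95 with IL-1β and 11.76, 12.74 and 12.99 with GlcN, a step of 1.07 ± 0.02 (limma adjusted p = 5.4e-07). DNAJC3, an inhibitor of the ISR kinases that also serves as an ER co-chaperone, read 8.12, 9.07 and 9.38 against 9.60, 10.35 and 10.44, with no overlap and a change of 1.27 ± 0.21. HYOU1, an ER chaperone of the HSP70 family, rose by 1.07 ± 0.06 and ERO1B, an oxidase that drives disulfide formation, by 1.58 ± 0.29. HSPA5, the main ER chaperone BiP, read 12.05, 12.92 and 13.09 against 13.18, 13.68 and 13.83, so that the groups did not overlap, and rose by 0.88 ± 0.22. It was named after its values were seen. The lower member, ERO1A, is a paralog of ERO1B that responds to hypoxia. It changed by -0.23 ± 0.06, a call lost without IL-1β array 1 (-0.23) or 3 (-0.16) or GlcN array 1 or 2 (-0.21 each).

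The promoters of HSPA5, ERO1B and XBP1 are shown because they hold the ER stress element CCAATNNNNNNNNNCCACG, in which the stretch of N may be any bases. Capitals mark the match, which lies on the other strand in ERO1B.
HSPA5: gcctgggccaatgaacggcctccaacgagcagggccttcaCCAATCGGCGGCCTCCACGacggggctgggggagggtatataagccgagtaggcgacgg
ERO1B: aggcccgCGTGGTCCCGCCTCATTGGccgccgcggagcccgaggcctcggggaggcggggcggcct
XBP1: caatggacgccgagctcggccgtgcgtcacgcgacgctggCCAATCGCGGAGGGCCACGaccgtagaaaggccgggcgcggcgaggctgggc
The windows were chr9:125241351-125241449 (minus strand), chr1:236282143-236282208 (minus strand) and chr22:28800570-28800661 (minus strand), and the match began 66, 243 and 52 bases upstream of the start. The element lay in 0.0806% of all promoters and in 16 of the 13147 tested genes, 0.122%. It lay in 6 of the 21 ER chaperone genes with a promoter, 28.6%, namely HSPA5, HSP90B1, CALR, CANX, CRELD2 and ERO1B. HSP90B1, the ER form of HSP90, rose by 0.41 ± 0.08, the calcium-binding chaperone CALR by 0.32 ± 0.08, CRELD2, another ER protein, by 0.36 ± 0.05, and the membrane chaperone CANX by 0.17 ± 0.07. CANX was lost without any IL-1β array (0.16 to 0.17) or GlcN array 1 (0.13) or 3 (0.17). Of the genes at least 1.5-fold changed, 3 of the 160 higher, 1.88%, and 1 of the 131 lower, 0.763%, held the ER stress element. The UPR element TGACGTGG lay in 0.936% of tested genes, 1.25% of the 160 higher and 0.763% of the 131 lower genes. By list it lay in 2 of 21 ER chaperone genes, 2 of 17 ER-associated degradation genes and 2 of 17 amino acid synthesis enzymes. It lay in 0 of 25 ISR genes and 0 of 16 cytosolic synthetases. The cyclic AMP response element TGACGTCA lay in 2.81% of tested, 1.25% of the higher and 3.82% of the lower genes. HSP90B1, CALR, CRELD2 and CANX were named after their values were seen.

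Genes that clear and report unfolded proteins were higher as well, though fewer of them passed. In ER-associated degradation 7 of 19 genes were higher and 2 lower, with a median of 0.22. HERPUD1, a membrane protein of the degradation complex, read 9.62, 10.65 and 10.96 against 11.52, 11.95 and 12.33, with no overlap and a change of 1.52 ± 0.33 (limma adjusted p = 1.57e-05). SEL1L, its scaffold, rose by 0.87 ± 0.14, EDEM1, which extracts misfolded glycoproteins, by 0.63 ± 0.16 and SYVN1, the ubiquitin ligase, by 0.56 ± 0.15. The lower members were the ubiquitin-conjugating enzyme gene UBE2G2 at -0.25 ± 0.05 and NGLY1, which strips N-glycans, at -0.25 ± 0.17. NGLY1 was lost without any IL-1β array (-0.23 to -0.28) or GlcN array 2 (-0.22) or 3 (-0.18).

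Among 11 UPR sensors and transcription factors 6 were higher and 1 lower, with a median of 0.25. XBP1, a central UPR transcription factor, read 9.23, 10.53 and 10.55 with IL-1β and 10.10, 11.14 and 11.26 with GlcN, a change of 0.73 ± 0.13 (limma adjusted p = 0.000157). The array gives its total RNA and not the spliced form. ERN1, the sensor that splices it, rose by 0.27 ± 0.02, CREB3 by 0.34 ± 0.13 and MBTPS2, a protease that frees ER-bound factors, by 0.57 ± 0.22. CREB3L1 was lower at -0.20 ± 0.06, a call lost without any 1 of the 6 arrays (-0.17 to -0.22). Of 36 genes of ER translocation and transport to the Golgi, 9 were higher and 2 lower, with a median of 0.09. TRAM1, a component of the translocation channel, rose by 0.63 ± 0.07, SLC33A1, the acetyl-CoA transporter of the ER, by 0.93 ± 0.13, SLC35B1, which carries ATP into the ER, by 1.11 ± 0.17 and SEC11C, a signal peptidase subunit, by 0.78 ± 0.12. SEC24A, a coat protein of transport vesicles, was lower at -0.41 ± 0.16 and SAR1A, the GTPase of the same coat, at -0.16 ± 0.12, the latter lost without any 1 of the 6 arrays (-0.10 to -0.19).

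**Figure D3:**
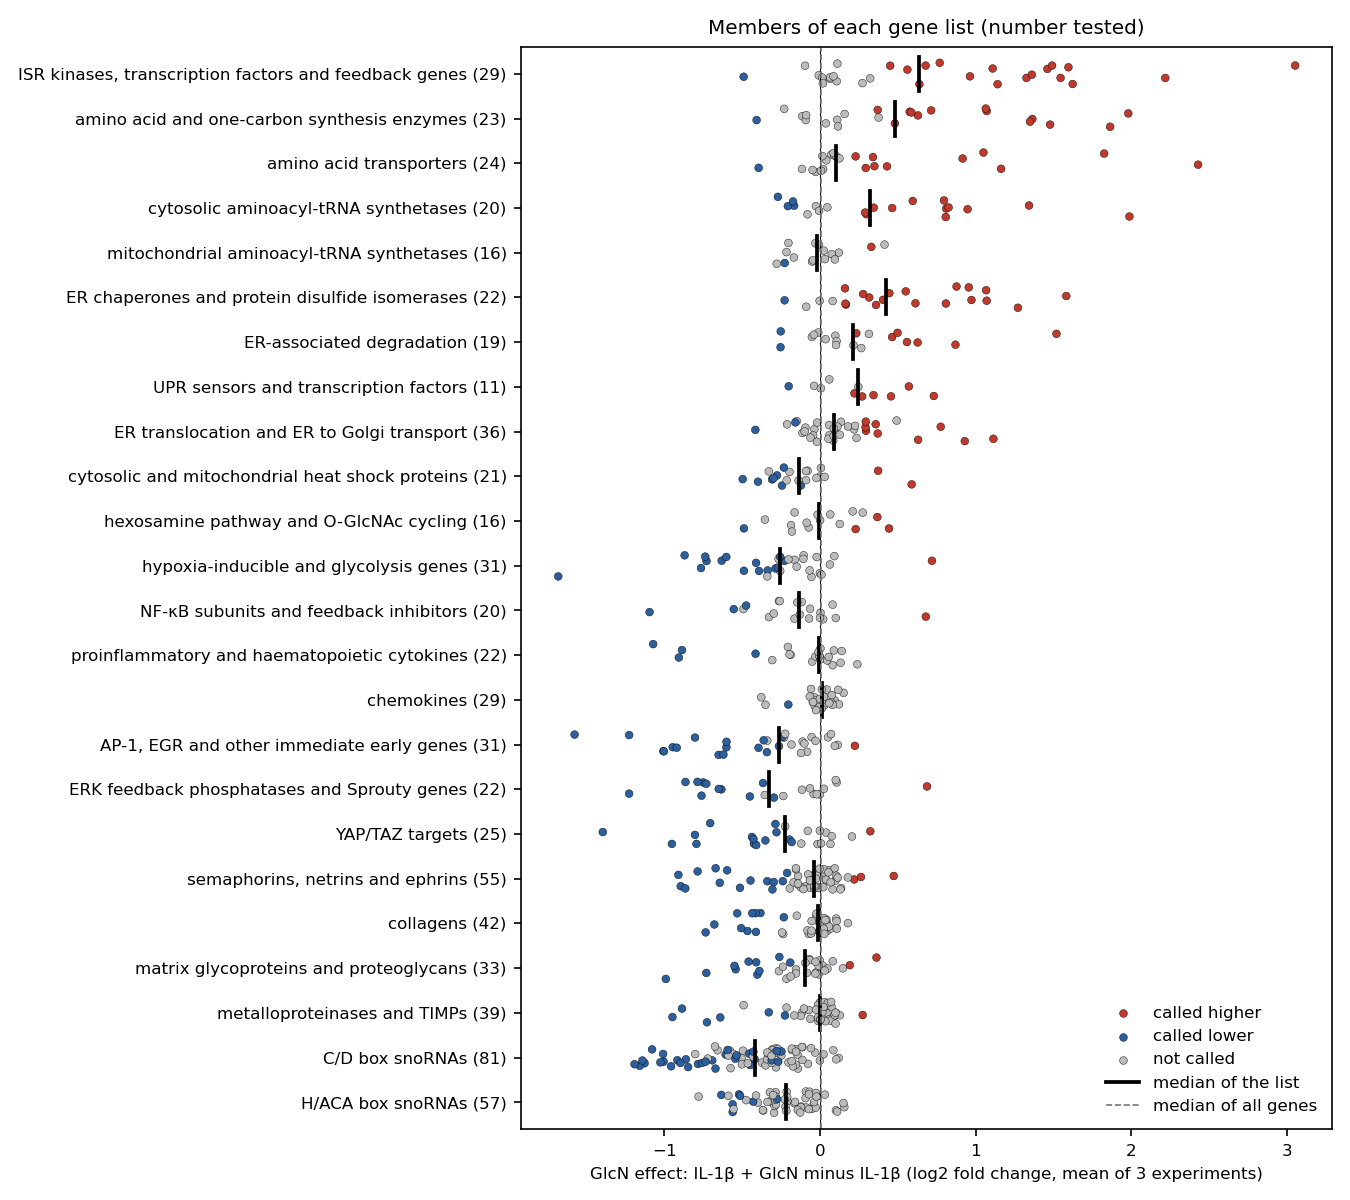
Log2 fold changes with GlcN of the members of 24 gene lists, 1 list a line and 1 point a gene, with red points for genes called higher, blue for genes called lower and a bar at each list's median. The lists of the ISR (median 0.64) and of amino acid synthesis (0.48) lie furthest to the right, and the C/D box snoRNAs (-0.42) and ERK feedback genes (-0.32) furthest to the left.

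Genes that handle GlcN itself moved in both directions. Of 16 genes of the hexosamine pathway and O-GlcNAc cycling, 3 were higher and 1 lower, with a median of -0.01. GFPT1, the rate-limiting enzyme that GlcN enters below, read 10.44, 11.41 and 11.85 with IL-1β and 11.12, 11.83 and 12.09 with GlcN, a change of 0.44 ± 0.23 (limma adjusted p = 0.0034). GNE, which commits UDP-GlcNAc to sialic acid synthesis, rose by 0.23 ± 0.08, and HK2, a hexokinase, fell by 0.49 ± 0.11 on the log2 scale. NANS, a later enzyme of sialic acid synthesis, rose by 0.37 ± 0.15, a call lost without any IL-1β array (0.33 to 0.39) or GlcN array 1 (0.24) or 2 (0.39). OGT, which attaches O-GlcNAc, had a log2 fold change of 0.21 ± 0.10 and did not pass (limma adjusted p = 0.128). Of 13 glucose transporter and MondoA target genes, 2 were lower and 0 higher. SLC2A1, the main glucose transporter of many cultured cells, read 11.80, 12.82 and 12.83 against 11.09, 12.03 and 12.44 and fell by 0.63 ± 0.21. ARRDC4, a target of the glucose sensor MondoA, fell by 0.72 ± 0.20. SLC2A8 and SLC2A14 did not pass, at 0.14 ± 0.13 and -0.33 ± 0.28.

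Chaperones outside the ER did not follow those inside it. Of 21 cytosolic and mitochondrial heat shock genes, 8 were lower and 2 higher, with a median of -0.14. HSPA8, the constitutive cytosolic HSP70, fell by 0.24 ± 0.06, HSP90AA1 by 0.31 ± 0.13 and HSPA4L, an HSP110 family member, by 0.40 ± 0.12. The mitochondrial protease LONP1 rose by 0.59 ± 0.03 and the mitochondrial HSP70 HSPA9 by 0.37 ± 0.18. The count of lower genes was 5 without IL-1β array 1 or GlcN array 3, 4 without IL-1β array 2 or GlcN array 2, and 5 after a shift of the arrays to equal medians.

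Other stress programs moved in a minority of members. Of 21 targets of NRF2, the factor of the oxidative stress response, 3 were higher and 1 lower, with a median of 0.09, and 5 were higher without GlcN array 3. NQO1, a quinone reductase, rose by 0.59 ± 0.20 and GCLC, the catalytic subunit of glutathione synthesis, by 0.38 ± 0.20. The modifier subunit GCLM rose by 0.42 ± 0.26, a call lost without any IL-1β array (0.38 to 0.47) or GlcN array 1 (0.28), and HMOX1, heme oxygenase, was at -0.41 ± 0.21, lost without IL-1β array 1 (-0.44) or 2 (-0.32) or GlcN array 1 (-0.35) or 2 (-0.40). In autophagy 4 of 26 genes were higher and 0 lower, with a median of 0.05, led by WIPI1, a membrane-binding protein of early autophagosomes, at 1.14 ± 0.16 and ATG13 at 0.39 ± 0.11. The autophagy count was 2 without IL-1β array 2 or GlcN array 2. Of 19 p53 targets 2 were higher and 2 lower: the kinase gene PLK3 fell by 0.40 ± 0.09 and CDKN1A, the p21 inhibitor of the cell cycle, by 0.36 ± 0.15. TP53I3 and TP53INP1 were both at 0.27, with an SD of 0.12 and 0.08. TP53I3 was lost without IL-1β array 3 (0.22) or GlcN array 2 (0.26) or 3 (0.25), and TP53INP1 without IL-1β array 1 (0.24) or 3 (0.25) or any GlcN array (0.24 to 0.29). Of 9 metallothionein genes, which share long stretches of sequence so that probes may not tell them apart, 2 were higher and the median was 0.19. MT1P3 rose by 0.44 ± 0.17, and MT1E was at 0.46 ± 0.09, lost without IL-1β array 1 (0.39) or 2 (0.47) or GlcN array 2 (0.47) or 3 (0.44), which left 1 higher gene.

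CD180 showed the largest decrease. This toll-like receptor family gene read 7.37, 8.98 and 8.04 with IL-1β and 4.25, 5.89 and 5.54 with GlcN, a change of -2.91 ± 0.35 (limma adjusted p = 2.36e-05) or 7.49-fold, and the groups did not overlap. Its value lay just above the 20th percentile used by the filter on low values on GlcN array 1 (4.18). On GlcN array 3 it lay just below that percentile (5.58), so the size of its fall is uncertain. DIO2, which activates thyroid hormone, read 8.23, 8.64 and 8.43 against 6.44, 6.42 and 7.02, likewise without overlap, and fell by 1.81 ± 0.40. KPRP, a gene better known from keratinocytes, fell by 2.16 ± 0.83 with its smallest change in experiment 1. SGK1, a kinase induced by serum and glucocorticoids, read 7.70, 8.49 and 9.13 against 6.31, 6.69 and 7.59 and fell by 1.57 ± 0.21 (limma adjusted p = 2.33e-06). IL7R, the IL-7 receptor, read 10.34, 11.04 and 11.24 against 8.91, 9.31 and 9.76 and fell by 1.55 ± 0.16, with no overlap. STC1, a secreted glycoprotein induced in hypoxia, fell by 1.68 ± 0.33, RGS4, which shortens G protein signals, by 1.74 ± 0.63, and GRPR, the gastrin-releasing peptide receptor, by 1.64 ± 0.48. MYEOV fell by 1.59 ± 0.34, the muscle Z-disc gene MYPN by 1.57 ± 0.20, the cilium gene DCDC2 by 1.56 ± 0.12, the zinc finger gene ZNF114 by 1.42 ± 0.06 and the long non-coding RNA UCA1 by 1.41 ± 0.21.

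Immediate early genes, which respond to growth factor and AP-1 signalling, were lower in 16 of 31 cases and higher in 1, with a median of -0.26 and 21 members lower in all 3 experiments. IER3, an early survival gene, read 10.53, 11.39 and 10.79 with IL-1β and 9.01, 9.99 and 10.04 with GlcN, a change of -1.22 ± 0.41 (limma adjusted p = 9.83e-05) without overlap. KLF10, a TGF-β-inducible transcription factor, read 8.71, 9.41 and 9.50 against 7.75, 8.55 and 8.49, also without overlap, and fell by 0.94 ± 0.07. BHLHE40, a clock repressor, fell by 0.92 ± 0.13 (log2) with all 3 GlcN values below all 3 IL-1β values. KLF2, a flow-induced transcription factor, was the higher member at 0.23 ± 0.08. The AP-1 subunits FOSL1 and JUNB fell by 0.60 ± 0.13 and 0.65 ± 0.24 and the factor EGR1 by 0.62 ± 0.27, named after their values were seen.

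In the list of ERK feedback phosphatases and Sprouty genes, which also holds phosphatases of stress kinases, 11 of 22 genes were lower and 1 higher, with a median of -0.32. DUSP5, a nuclear ERK phosphatase, read 8.36, 9.57 and 10.02 against 7.57, 8.66 and 9.13 and fell by 0.86 ± 0.06 (limma adjusted p = 2.28e-05). DUSP10 fell by 0.79 ± 0.16 and DUSP1 by 0.75 ± 0.11, both phosphatases of stress kinases, while DUSP16, of the same family, rose by 0.69 ± 0.29. Of 12 EGF family ligands and receptors 2 were lower and 0 higher, with a median of -0.01: HBEGF, heparin-binding EGF, fell by 1.00 ± 0.07 and the neuregulin gene NRG1 by 0.50 ± 0.02. EGF and EREG did not pass, at -0.10 ± 0.06 and -0.13 ± 0.13. Of 26 FGF, VEGF and PDGF ligands 2 were lower, FGF5 at -0.98 ± 0.09 and the lymphatic growth factor VEGFC at -0.84 ± 0.17, and 2 were higher, FGF2 at 0.36 ± 0.13 and VEGFA, the main angiogenic factor, at 0.72 ± 0.16.

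Targets of YAP and TAZ, coactivators that respond to cell shape and tension, were lower in 14 of 25 cases and higher in 1, with a median of -0.22. F3, tissue factor, read 9.07, 10.27 and 10.69 with IL-1β and 7.87, 8.54 and 9.43 with GlcN, a change of -1.39 ± 0.29 (limma adjusted p = 8.42e-06). CCN1, a matrix-associated growth regulator, fell by 0.80 ± 0.28 and ANKRD1, a muscle ankyrin repeat protein, by 0.95 ± 0.36. AJUBA, a LIM protein of the same pathway, was higher at 0.32 ± 0.02. In the list of semaphorins, netrins and ephrins, guidance cues that also act in fibroblasts, 14 of 55 genes were lower and 3 higher, with a median of -0.04. SEMA3E, SEMA3C and EPHA4 fell by 0.86 ± 0.04, 0.89 ± 0.22 and 0.78 ± 0.12, and NTN4 rose by 0.47 ± 0.08. SEMA6D and PLXNA2 were at 0.26 ± 0.16 and 0.22 ± 0.07. SEMA6D was lost without IL-1β array 1 (0.22) or 3 (0.25) or any GlcN array (0.21 to 0.30), and PLXNA2 without IL-1β array 1 (0.21) or 2 (0.18) or GlcN array 2 or 3 (0.20 each). Of 26 TGF-β ligands, receptors and targets 6 were lower and 0 higher, with a median of -0.08. Among them GREM1, an antagonist of bone morphogenetic proteins, read 9.46, 10.80 and 10.86 against 8.25, 9.51 and 9.78 and fell by 1.19 ± 0.10, the co-receptor gene ENG fell by 0.71 ± 0.09, TGFB2 by 0.79 ± 0.16 and FST, follistatin, by 0.64 ± 0.25.

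The promoter windows of F3 and of the cytokine gene IL11, both lower with GlcN, are shown for their AP-1 sites. The site was searched as TGANTCA on both strands, is in capitals, and overlaps none of the other motifs by its letters alone.
F3: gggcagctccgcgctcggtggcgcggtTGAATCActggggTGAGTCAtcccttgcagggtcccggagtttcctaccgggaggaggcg
IL11: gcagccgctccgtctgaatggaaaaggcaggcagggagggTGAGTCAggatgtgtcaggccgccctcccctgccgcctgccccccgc
These windows were chr1:94541923-94542009 (minus strand) and chr19:55370513-55370599 (minus strand). F3 held more than 1 copy, the outermost beginning 223 bases upstream of its start, and in IL11 the site began at 96. The letters lay in 7.76% of all promoters, in 5.22% of tested genes, in 20 of the 131 genes at least 1.5-fold lower, 15.3%, and in 10 of the 160 at least 1.5-fold higher, 6.25%. The 20 included CD180, DIO2 and ANKRD1, and the 10 included DDIT3. Of the 22 immediate early genes with a promoter 1 held it, 4.55%. The letters did not follow direction by list. They lay in 5 of 25 ISR genes and 4 of 20 amino acid transporters, 20% each, lists with more higher than lower members. They lay in 0 of 17 amino acid synthesis enzymes and 0 of 16 cytosolic synthetases. Among lists with lower members they lay in 4 of 13 cytokine genes, 30.8%, 1 of 17 ERK feedback genes, 5.88%, and 1 of 26 hypoxia and glycolysis genes, 3.85%.

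Genes induced by hypoxia and those of glycolysis were lower in 15 of 31 cases and higher in 1, with a median of -0.26 and 22 members lower in all 3 experiments. PDK1, which keeps pyruvate out of the mitochondrion, read 9.68, 10.27 and 10.66 with IL-1β and 8.91, 9.20 and 9.90 with GlcN, a change of -0.87 ± 0.17 (limma adjusted p = 0.000756). ENO2, an enolase, fell by 0.60 ± 0.13, and LDHA and PGK1, which make lactate and ATP in glycolysis and were named after their values were seen, by 0.39 ± 0.13 and 0.28 ± 0.10. VEGFA, described above, was the higher member. In cholesterol synthesis 3 of 19 genes were lower and 0 higher, with a median of -0.10, led by INSIG1, a sterol sensor partner, at -0.51 ± 0.20. That count was 1 without IL-1β array 1 or 2 or GlcN array 2. Of 18 genes of fatty acid synthesis 5 were lower and 0 higher, with a median of -0.13. ELOVL6, an elongase, fell by 0.44 ± 0.03, FASN, fatty acid synthase, by 0.44 ± 0.16 and ACSL5, which activates fatty acids, by 0.89 ± 0.34. ACLY, which supplies acetyl-CoA, was at -0.27 ± 0.02, lost without GlcN array 2 (-0.25).

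The cytokine genes that passed were lower with GlcN. Of 22 proinflammatory and haematopoietic cytokine genes tested, 4 were lower and 0 higher, with a median of -0.01. IL6 read 6.26, 7.59 and 7.68 in resting cells, 8.03, 8.63 and 8.59 with IL-1β and 6.81, 7.28 and 7.96 with IL-1β and GlcN. All 3 GlcN values lay below all 3 IL-1β values, and the change was -1.07 ± 0.39 (limma adjusted p = 0.00518), beside 1.24 ± 0.46 between IL-1β and resting cells, which did not pass (limma adjusted p = 0.169). IL24, an IL-10 family cytokine, read 6.57, 8.56 and 8.74 with IL-1β and 6.01, 7.38 and 7.76 with GlcN, a change of -0.91 ± 0.32 (limma adjusted p = 0.000792). IL11, an IL-6 family cytokine, fell by 0.89 ± 0.32, and neither IL24 nor IL11 lay above its resting level with IL-1β in more than 1 experiment. KITLG, stem cell factor, was at -0.41 ± 0.32, lost without any IL-1β array (-0.37 to -0.44) or GlcN array 2 (-0.35) or 3 (-0.28). TNF changed by -0.31 ± 0.21 and CXCL8, the gene of IL-8, by -0.38 ± 0.28, and neither passed (limma adjusted p = 0.0639 and 0.328). IL1B and PTGS2, the inducible prostaglandin synthase, were at -0.05 ± 0.08 and -0.03 ± 0.14 and did not pass.

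**Figure D4:**
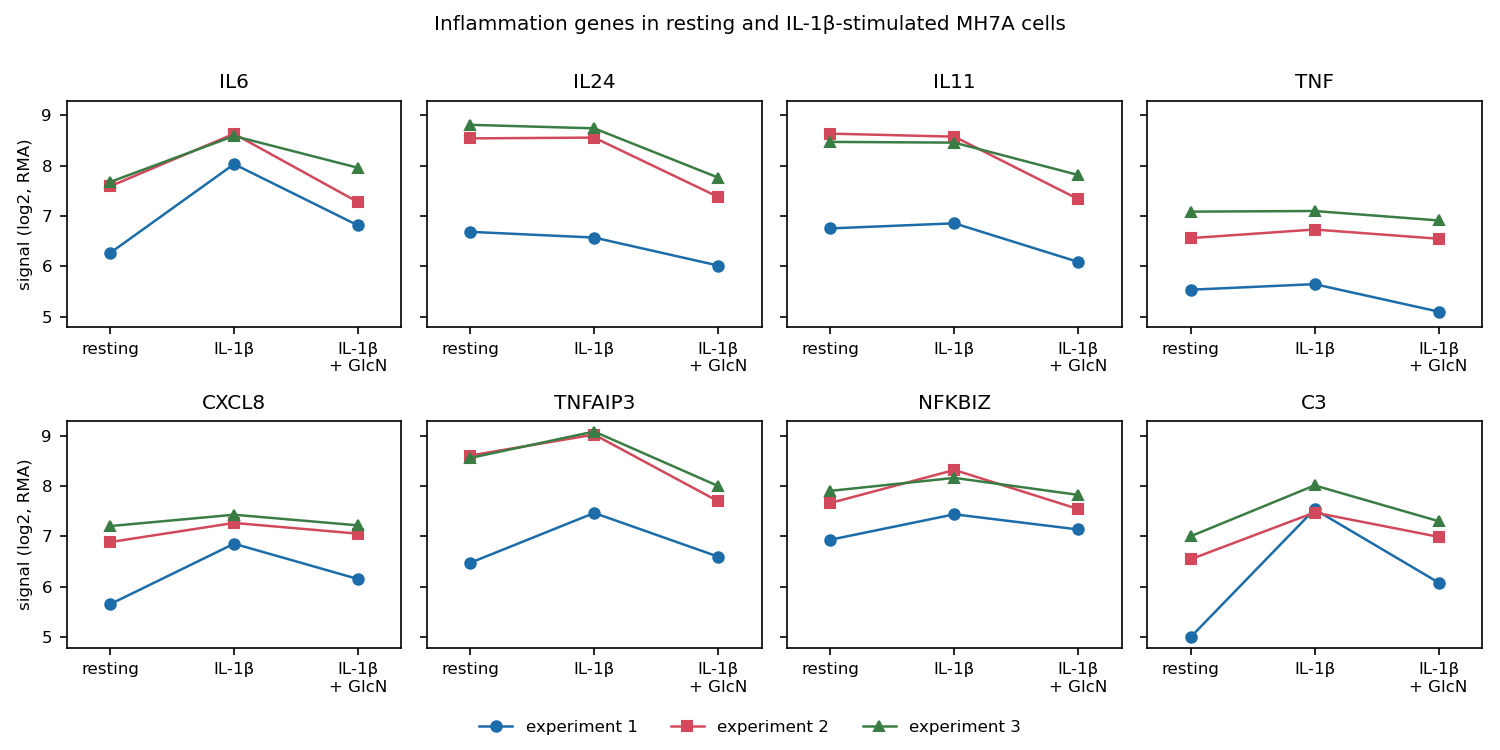
Log2 signal of 8 inflammation genes in resting cells, with IL-1β and with IL-1β and GlcN, a line for each of the 3 experiments. IL6, TNFAIP3 and C3 lie higher with IL-1β than in resting cells in all 3 experiments, differences that did not pass the test, and lower with GlcN, while TNF and CXCL8 did not pass with GlcN.

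The chemokine genes were nearly level as a group, with 1 of 29 lower, 0 higher and a median of 0.01. The lower one, CCL5, was at -0.20 ± 0.15 and was lost without IL-1β array 1 (-0.15) or 3 (-0.17) or any GlcN array (-0.19 to -0.23). CXCL1, a neutrophil attractant, was at -0.35 ± 0.35 and did not pass. Of 20 NF-κB subunits and feedback inhibitors 3 were lower and 1 higher, with a median of -0.14. TNFAIP3, the A20 enzyme that ends NF-κB signalling and is itself induced by it, read 7.46, 9.02 and 9.08 with IL-1β and 6.59, 7.69 and 7.998 with GlcN, a change of -1.09 ± 0.23 (limma adjusted p = 0.00154). NFKBIZ, which NF-κB induces and IL6 transcription uses, fell by 0.47 ± 0.27. BCL3 was at -0.55 ± 0.29, lost without IL-1β array 1 (-0.47) or 2 (-0.54) or GlcN array 1 (-0.42). CYLD, a deubiquitinase that restrains the pathway, was higher at 0.68 ± 0.10. NFKBIA, the inhibitor IκBα, was at -0.49 ± 0.24 and did not pass (limma adjusted p = 0.0705).

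IL6 and TNFAIP3 were the 2 genes at least 1.5-fold lower with GlcN whose promoters held the NF-κB site GGGANTTTCC, on either strand and in capitals here.
IL6: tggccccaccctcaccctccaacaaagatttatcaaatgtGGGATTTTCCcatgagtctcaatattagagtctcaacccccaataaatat
TNFAIP3: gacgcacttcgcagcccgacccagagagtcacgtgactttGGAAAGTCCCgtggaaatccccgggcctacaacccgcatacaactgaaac
The windows were chr7:22727087-22727176 (plus strand) and chr6:137867152-137867241 (plus strand), with the site 73 and 67 bases upstream of the start. The letters lay in 0.579% of all promoters and 0.586% of tested genes, in 5 of 18 genes of the NF-κB list, 27.8%, and in 0 of the genes at least 1.5-fold higher.

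Receptors and other inflammation genes moved in both directions. Of 17 receptors of the IL-1, IL-6, IL-7 and IL-20 families 3 were higher and 2 lower, and 1 was higher with the filter at the 50th percentile. Beside IL20RB and IL7R, described above, OSMR, the oncostatin M receptor, read 11.14, 11.69 and 11.84 with IL-1β and 10.40, 10.92 and 11.45 with GlcN and fell by 0.63 ± 0.21. IL1RL1, the IL-33 receptor, rose by 0.76 ± 0.46. It lay below the 20th percentile used by the filter on low values on IL-1β arrays 1 and 2, at 3.99 and 4.85. The size of its rise is therefore uncertain. Of 31 interferon-stimulated genes 2 were higher and 0 lower, with a median of 0.04, and the count was 5 without GlcN array 3 and 1 without IL-1β array 2. XAF1, an apoptosis-related member, rose by 0.28 ± 0.13. Of 15 prostaglandin genes 2 were lower and 0 higher, the receptor gene PTGER4 at -0.33 ± 0.19 and PTGS1, the constitutive prostaglandin synthase, at -0.35 ± 0.21. PTGS1 was lost without any IL-1β array (-0.33 to -0.37) or GlcN array 1 (-0.21). Of 13 complement genes 2 were lower and 1 higher: CD59, a membrane inhibitor of complement, fell by 0.45 ± 0.04 and CD55, another, rose by 0.41 ± 0.18. C3, the central component, was at -0.88 ± 0.51 (limma adjusted p = 0.0289) and was lost without IL-1β array 1 (-0.56) or without GlcN array 1, 2 or 3 (-0.85, -0.94 and -0.86).

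Matrix genes were lower in many members, most of them by less than 1.5-fold. Of 42 collagen genes 10 were lower and 0 higher, while the median was -0.01. COL8A1, a short-chain collagen, read 7.35, 7.95 and 8.44 with IL-1β and 6.60, 7.04 and 7.90 with GlcN and fell by 0.73 ± 0.19 (limma adjusted p = 0.00101). COL4A1 and COL4A2, of basement membranes, fell by 0.41 ± 0.25 and 0.43 ± 0.18, and COL7A1, of anchoring fibrils, by 0.51 ± 0.21. The collagen count was 4 without IL-1β array 1 and 6 without GlcN array 1 or 2. Of 33 matrix glycoproteins and proteoglycans 10 were lower and 2 higher, with a median of -0.09, and the lower count was 6 without IL-1β array 2 or GlcN array 1 or 2. THBS1, thrombospondin, fell by 0.73 ± 0.24, NID1, a basement membrane linker, by 0.54 ± 0.13, the laminin chain LAMB1 by 0.41 ± 0.04 and the collagen-binding SPARC by 0.40 ± 0.10. TNC, tenascin C, and LAMA2 were the higher members at 0.36 ± 0.26 and 0.19 ± 0.05. TNC was lost without IL-1β array 2 (0.29) or GlcN array 1 (0.33) or 2 (0.28), and LAMA2 without IL-1β array 1 (0.20) or 2 (0.17) or GlcN array 1 (0.15).

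Enzymes that cut or crosslink the matrix shifted in the same way in part of their members. Of 39 metalloproteinases and TIMPs 6 were lower and 1 higher, with a median of 0.00. MMP2, gelatinase A, read 9.25, 9.11 and 9.66 with IL-1β and 8.24, 8.14 and 8.79 with GlcN, with no overlap and a change of -0.95 ± 0.07 (limma adjusted p = 0.000132). ADAMTS1, ADAMTS12 and ADAMTS6, proteases of proteoglycans and related matrix, fell by 0.89 ± 0.27, 0.73 ± 0.16 and 0.64 ± 0.22. ADAMTS5, an aggrecanase, was higher at 0.28 ± 0.20, lost without any IL-1β array (0.22 to 0.33) or GlcN array 1 (0.28) or 2 (0.19). The collagenases MMP1 and MMP13 and stromelysin MMP3 did not pass, at -0.21 ± 0.89, -0.49 ± 0.40 and -0.12 ± 0.11. In collagen processing 6 of 20 genes were lower and 0 higher, with a median of -0.14, and the count was 3 without GlcN array 2. TLL1, a procollagen protease, fell by 1.17 ± 0.33, LOXL2, a crosslinking oxidase, by 0.51 ± 0.10 and PLOD2, a collagen lysine hydroxylase, by 0.44 ± 0.22.

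Synthesis of the sugar chains of the matrix, for which GlcN is a building block, was mixed. Of 34 genes of glycosaminoglycan synthesis 6 were lower and 2 higher, with a median of -0.02, and the lower count was 3 without IL-1β array 2 or GlcN array 2. EXT1, a polymerase of heparan sulfate, read 9.82, 11.12 and 11.82 with IL-1β and 9.31, 10.66 and 11.34 with GlcN and fell by 0.48 ± 0.03 (limma adjusted p = 2.73e-05). HS3ST3A1, a heparan sulfotransferase, fell by 0.70 ± 0.13 and the epimerase gene GLCE by 0.37 ± 0.07. CSGALNACT2, which starts chondroitin chains, rose by 0.69 ± 0.16 and B4GALT7, which builds the linker common to both, by 0.65 ± 0.22. Of 9 hyaluronan genes 1 was higher, UGDH, which makes UDP-glucuronic acid, at 0.50 ± 0.26, and 2 were lower. HAS2, the main hyaluronan synthase of fibroblasts, was at -0.66 ± 0.49, lost without IL-1β array 3 (-0.47) or GlcN array 1 (-0.70) or 3 (-0.50), and the receptor gene CD44 at -0.19 ± 0.13, lost without IL-1β array 2 (-0.18) or 3 (-0.14) or GlcN array 2 (-0.15) or 3 (-0.18). Among the 14 fibroblast markers tested 5 were lower and 1 higher, with a median of -0.15, and 2 were lower without IL-1β array 1. THY1, a surface marker of synovial sublining fibroblasts, fell by 0.44 ± 0.03, the protease FAP by 0.82 ± 0.23, and COL3A1 was at -0.68 ± 0.37, lost without IL-1β array 1 (-0.56). In bulk RNA fewer cells of a kind and less RNA per cell cannot be told apart.

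Cell cycle genes changed in a minority of members. Of 43 genes of DNA replication and mitosis 7 were lower and 1 higher, with a median of -0.08. MCM4, of the replicative helicase, fell by 0.32 ± 0.11. RRM2, which makes deoxynucleotides, was at -0.58 ± 0.07 and CDT1, a licensing factor and the higher member, at 0.35 ± 0.08, each lost without GlcN array 2 (-0.51 and 0.33). The lower count was 4 without IL-1β array 1 or 2 or GlcN array 2, and 3 without GlcN array 3. CCND1, cyclin D1, read 8.78, 10.03 and 11.26 against 8.25, 9.32 and 9.99 and fell by 0.84 ± 0.39, as 1 of 3 lower genes among 14 cyclins D, CDK inhibitors and quiescence genes, of which 0 were higher. Of 57 replication-dependent histone genes 3 were higher and 3 lower, with a median of 0.03. H2AC21 rose by 0.73 ± 0.17 and H1-1 fell by 0.87 ± 0.21, and the near-identical copies of this family may share probes.

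Small nucleolar RNAs were lower in a larger share than protein-coding genes. Of 138 genes annotated as snoRNA 38 were lower, 27.5%, and 0 higher, against 6.71% and 5.55% of 15632 protein-coding genes, and of 15 genes annotated as small nuclear RNA 4 were lower, 26.7%. Among 81 snoRNAs of the C/D box kind, guides for the methylation of ribosomal RNA, 31 were lower, with a median of -0.42, and among 57 H/ACA box snoRNAs, which guide pseudouridylation, 7 were lower, with a median of -0.22. The experiments differed in this: the C/D median was -0.38 in experiment 1, -0.86 in experiment 2 and -0.10 in experiment 3, and that of the H/ACA box RNAs was -0.18, -0.40 and 0.00. SNORD78 read 9.19, 10.28 and 9.95 with IL-1β and 8.43, 8.55 and 8.86 with GlcN, a change of -1.19 ± 0.49 (limma adjusted p = 0.000888) without overlap. SNORD75 fell by 1.14 ± 0.53, SNORD30 by 1.00 ± 0.31, SNORD50A by 0.90 ± 0.30 and SNORA21 by 0.56 ± 0.14. The IL-1β level of these RNAs lay above the resting level on average, though none of these differences passed. The difference was 0.49 ± 0.44 (log2) for SNORD78, 0.39 ± 0.13 for SNORD75, 0.50 ± 0.47 for SNORD30, 0.26 ± 0.20 for SNORD50A and 0.29 ± 0.25 for SNORA21. The C/D count was 20 without IL-1β array 1, 14 without IL-1β array 2 or GlcN array 2, and 4 without experiment 2. The H/ACA count was 3 without IL-1β array 2 or GlcN array 2, and 13 without IL-1β array 3.

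Other small RNAs were also lower in part. Of 23 spliceosomal and other small nuclear RNAs 5 were lower and 0 higher, with a median of -0.13. RNVU1-15 and RNVU1-19, variants of the U1 RNA that resemble each other, fell by 1.29 ± 0.48 and 1.38 ± 0.19, and RNU2-1, the U2 RNA, by 0.70 ± 0.21. None of 14 small Cajal body RNAs passed, and their median was -0.15. Of 8 snoRNA host genes 2 were lower, HSPA8 and the mitochondrial phosphate carrier SLC25A3, at -0.24 ± 0.06 and -0.20 ± 0.04. The methods purified total RNA on a column, and no value in the files shows how much short RNA each array received. The part of RNA recovery in these differences was not tested.

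MicroRNA genes were lower in 6 of 89 cases, 6.74%, which is close to the background of 6.62%, and higher in 0, with a median of -0.03. The count was 3 with the filter on low values at the 50th percentile. The array reads the precursor or its host transcript and not the mature microRNA. The mature sequences of the 4 that fell past 2-fold are shown to identify them, from RefSeq, with the seed (bases 2 to 8) in capitals.
hsa-miR-21-5p: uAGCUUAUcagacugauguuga
hsa-miR-221-3p: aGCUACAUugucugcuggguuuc
hsa-let-7a-2-3p: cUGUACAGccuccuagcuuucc
hsa-let-7a-5p: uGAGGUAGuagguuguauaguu
hsa-miR-29a-3p: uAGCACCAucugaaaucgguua
hsa-miR-29a-5p: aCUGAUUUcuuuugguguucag
These 6 mature sequences carry 6 different seeds. The mature sequences lie at chr17:59841273-59841294 (plus strand) (MIR21), chrX:45746180-45746202 (minus strand) (MIR221), chr11:122146568-122146589 (minus strand) (the 5p arm of MIRLET7A2) and chr7:130876748-130876769 (minus strand) (the 3p arm of MIR29A), in GRCh38.p14. MIR21, which is abundant in activated fibroblasts, read 8.58, 9.28 and 8.91 with IL-1β and 6.73, 7.24 and 7.44 with GlcN, a change of -1.79 ± 0.29 (limma adjusted p = 2.42e-05) with no overlap. MIR221 read 5.84, 7.61 and 7.63 against 4.84, 5.63 and 6.29 and fell by 1.44 ± 0.50. MIRLET7A2 fell by 1.22 ± 0.52 and MIR29A by 1.06 ± 0.30. MIR29A lay near the filter on low values, at 4.35, 5.21 and 5.87 with IL-1β and 3.29, 4.44 and 4.51 with GlcN. Its IL-1β values were just above the 20th percentile of their arrays, and all its GlcN values were below it. The filter therefore kept MIR29A without any GlcN array, and the size of its fall is uncertain. MIRLET7A2 was below that percentile on GlcN array 1, at 4.10.

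With alloxan present, GlcN was compared with its own control on 6 other arrays, so the values share no array with those above. There GlcN gave 314 higher and 281 lower genes in limma with the block. The genes that led the response without alloxan kept their sign in many cases: the change with and without alloxan was 2.02 and 3.08 for SPX, 1.94 and 3.05 for INHBE, 2.09 and 2.97 for BEST1, and -0.87 and -2.91 for CD180. For the ER chaperones the median was 0.54 with and 0.43 without alloxan, for ERAD genes 0.27 and 0.22, and for amino acid transporters 0.16 and 0.10. For ISR genes it was 0.25 and 0.64, and for C/D box snoRNAs -0.10 and -0.42. IL6 changed by -0.90 with and by -1.07 without alloxan, TNFAIP3 by -0.81 and -1.09, IL24 by -0.69 and -0.91, and TNF by -0.07 and -0.31. CXCL8 went the other way, at -0.96 with alloxan, which passed (limma adjusted p = 0.0355), and -0.38 without, which did not. The difference between these 2 effects of GlcN on CXCL8 did not pass (limma adjusted p = 0.498).

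The difference between the GlcN effects with and without alloxan was tested in limma over all genes, and 12 of 16872 genes passed, 0.0711%. In all 12 the effect was smaller or turned with alloxan. These 12 were chosen for this test and named after their values were seen, apart from SESN2, IL20RB, ZNF114 and SLFN5. GDF15, a stress cytokine of the TGF-β family, read 8.64, 9.98 and 9.86 with IL-1β and 9.87, 10.69 and 10.81 with GlcN, a change of 0.96, while with alloxan it changed by -0.55. DDIT4, an inhibitor of the growth kinase mTORC1, rose by 1.11 without alloxan and changed by -0.04 with it. IL20RB changed by 2.24 and 0.60, SESN2 by 1.33 and 0.44, and ZNF114 by -1.42 and -0.25. The rest were HDDC3, a nucleotide pyrophosphohydrolase (1.06 and 0.22), SLFN5 (1.66 and 0.56), the phosphodiesterase PDE5A (1.10 and 0.21), the tRNA enzyme THG1L (0.88 and 0.13), ZNF233 (0.62 and 0.06), the corepressor CTBP1 (0.37 and -0.03) and the lymphatic growth gene CCBE1 (-1.07 and -0.42). The count was 4 without IL-1β array 1, 2 without IL-1β array 2, 39, 2 and 3 without GlcN array 1, 2 and 3, and 0 without any whole experiment. For other genes the effects with and without alloxan are not shown to be alike.

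**Figure D5:**
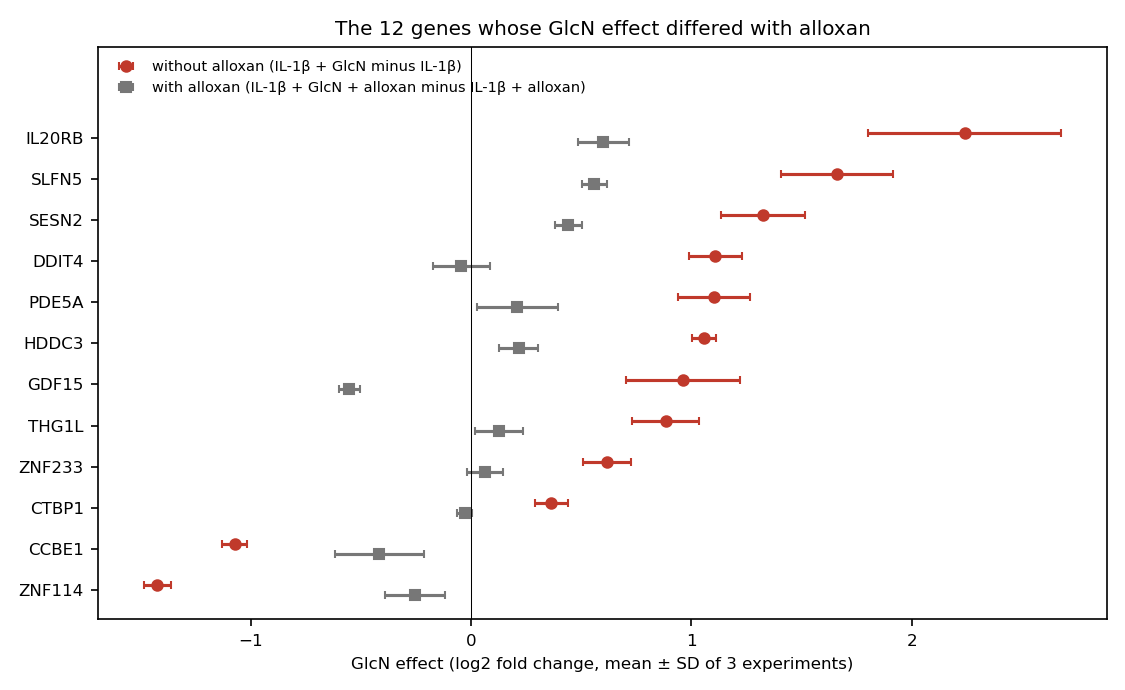
Log2 fold change with GlcN (horizontal axis, mean ± SD of 3 experiments) of the 12 genes whose GlcN effect differed with alloxan, with red circles for the effect without and grey squares for that with alloxan. Every square lies closer to 0 than its circle, and that of GDF15 lies on the other side of 0, at -0.55 against 0.96.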

How the data were processed

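Total RNA of 15 MH7A cultures, 5 conditions in each of 3 experiments, was measured on Human Gene 1.0 ST arrays. The deposited values are log2 signals of 33297 transcript clusters, which the authors made with RMA (background correction, normalization and probe summary) in Affymetrix Expression Console. The software versions, and whether all arrays were processed in 1 run, were not given in the sources used here.

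Clusters were named from GEO's platform annotation with symbols updated through RefSeq gene IDs. The 1754 clusters with several symbols and the 12083 with no listed symbol were left out. The brightest cluster stood for a gene, and 16872 of 18417 genes exceeded the 20th percentile on at least 3 arrays. limma 3.58.1 (R 4.3.3) fitted 5 group means with the experiment as a block to all 15 arrays, with Benjamini-Hochberg adjustment over all genes and a two-sided threshold of 0.05. The fit was tested on simulated data. Python 3.11.15, pandas 2.3.3, numpy 2.4.6 and matplotlib 3.10.9 were used for the rest.

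The pairing comes from the experiment numbers in the titles. Deviations from group means correlated at 0.621 to 0.848 between arrays of the same number (30 pairs). Between arrays of another number and another condition they correlated at -0.656 to -0.0678 (60 pairs). The deviations within a group cancel out, which by itself lowers the correlations between different numbers, so their negative sign is partly built in. Named genes were the 15 largest changes in each direction with the same sign in 3 of 3 experiments, the cytokine genes the study measured, OGT, and in each list up to 4 members with the smallest p and those that moved against the list. Members and lists were chosen with earlier results of these data known. The number of arrays limits the precision. Alternatives were the fit without the block, the 6 arrays alone, the methods' t-test, other filters, cluster means, other scalings, another moderation, a 1.5-fold bound and leaving out arrays.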

Additional observations from a re-analysis of the deposited data

Results flagged for a closer look

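In 12 genes the GlcN effect differed between cells with and without alloxan by limma's two-sided test of the difference (adjusted p under 0.05 over 16872 genes). The log2 fold change with alloxan minus that without was -1.64 for IL20RB, -1.52 for GDF15, -1.15 for DDIT4, -1.10 for SLFN5, -0.89 for SESN2, -0.89 for PDE5A, -0.84 for HDDC3, -0.76 for THG1L, -0.55 for ZNF233 and -0.39 for CTBP1, all of which were higher with GlcN alone. It was 1.17 for ZNF114 and 0.66 for CCBE1, which were lower with GlcN alone. The limma adjusted p ran from 0.00515 for GDF15 and SESN2 to 0.032 for SLFN5, PDE5A, CCBE1 and CTBP1.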

How the results depend on the processing

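Without the replicate block, 3 genes were higher and 1 lower, and 0 differed between GlcN effects with and without alloxan, so the counts rest on the pairing by experiment. The 6 arrays alone, with the block, gave 1 higher and 0 lower gene in limma, and the methods' t-test, run on the deposited values and not on values as the study's software scaled them, gave 0 and 0 after Benjamini-Hochberg adjustment, with 51 genes at an unadjusted p under 0.05. A bound of 1.5-fold left 196 higher and 199 lower genes. For the difference with alloxan the filter at the 50th percentile gave 19 genes and quantile normalization 23. Leaving out arrays or whole experiments gave 316 to 1017 higher genes, 359 to 1253 lower genes and 0 to 39 that differed with alloxan. Quantile normalization moved the share of higher genes among all calls from 44.4% to 52.5%, and equal medians to 49.7%, with the median over all genes moved by at most 0.0167 (log2). No filter, cluster means and the other moderation kept each of these counts within 1.5 times. Among the gene lists the filter at the 50th percentile moved the lower NF-κB genes from 3 to 5. After a shift to equal medians 243 of 257 called genes examined singly kept their call. The number was 218 without GlcN array 2 and 158 without experiment 2. None changed sign under any alternative, an outcome largely fixed in advance. The fold changes are the same without the block, on the 6 arrays, by t-test, with the other moderation and with the 1.5-fold bound. Nearly all called genes had the same sign in 3 of 3 experiments, so leaving out arrays could rarely reverse them. The causes of the shifts in these counts were not tested.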
